A study of Mus musculus with 6 samples.

Results

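The D cyclins, the G1 cyclin-dependent kinases and the Rb proteins were followed in hearts of mice lacking miR-1-2. They comprised every probe set whose platform gene symbol was Ccnd1, Ccnd2, Ccnd3, Cdk2, Cdk4, Cdk6, Rb1, Rbl1 or Rbl2, which gave 9 genes of the 18193 measured, with 29 of the 45037 probe sets tested. Whole hearts of 3 miR-1-2 knockout mice and 3 wild-type mice were taken at postnatal day 10, with 1 array for each mouse. The labels name no treatment. Strain, sex, litter and the design of the deleted allele are not stated in the labels or the design text. miR-1 is also made from miR-1-1, which the labels do not name as targeted.

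D cyclins bind and activate Cdk4 and Cdk6, and these kinases phosphorylate the pocket proteins Rb1, Rbl1 (p107) and Rbl2 (p130). Phosphorylated pocket proteins release E2F factors, which turn on the genes of DNA replication, and Cdk2 with E-type cyclins completes that step. In mice, heart muscle cells mostly leave the cell cycle in the first weeks after birth, and D cyclins and their kinases decline over that period. miR-1 is a microRNA of heart and skeletal muscle that lowers messenger RNAs it pairs with, and Ccnd1 has been reported as one of its targets.

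No difference between knockout and wild-type hearts in the 9 genes passed the adjusted threshold of the test used. On the log2 scale of the arrays, the differences of the 29 probe sets (knockout minus wild type) lay between -0.27 for a Cdk6 probe set and 0.18 for a Cdk4 probe set, or between 0.828-fold and 1.13-fold. Of these, 16 lay above 0 and 13 below (47.1% of all probe sets lay above 0), with a median of 0.0049, beside -0.0064 over all probe sets. With limma and Benjamini-Hochberg adjustment over all probe sets, 0 of 29 passed an adjusted p of 0.05, and their adjusted p-values all rounded to 1.00. Among all probe sets 3 passed, or 0.00666%. At an unadjusted p under 0.05 there were 2 of 29, beside 3.94% of all probe sets. Over genes, 0 of the 9 and 0% of all genes passed with limma, and 0 of the 9 had an unadjusted p under 0.05, beside 4.1% of all genes.

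The clearest pattern over the arrays followed the replicate number. In 8 of the 9 genes (all but Rb1), the array numbered replicate 1 was the lowest of its group in knockout and in wild type, where the brightest probe set stood for the gene. Over all 18193 genes this was so for 24.8%. Both replicate 1 arrays also stood apart in Ucp1, the uncoupling protein of brown fat, at 10.39 and 9.45, against 5.22 to 6.68 in the other arrays. Sex was uneven: Xist, which silences an X chromosome in females, was at 7.55 and 7.57 in knockout replicates 1 and 3, at 12.19 in knockout replicate 2 and between 11.91 and 12.13 in wild type. Differences of the members are therefore given with all arrays and without the replicate 1 arrays. Their intervals come from a fit without the replicate number, so they include the spread that follows it. With that number as a block, the SE of Ccnd1 1417420_at was 0.081, against 0.18 without it. For Ccnd1 1448698_at it was 0.078, against 0.080. The part of brown fat in the members' differences was not tested.

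**Figure D1:**
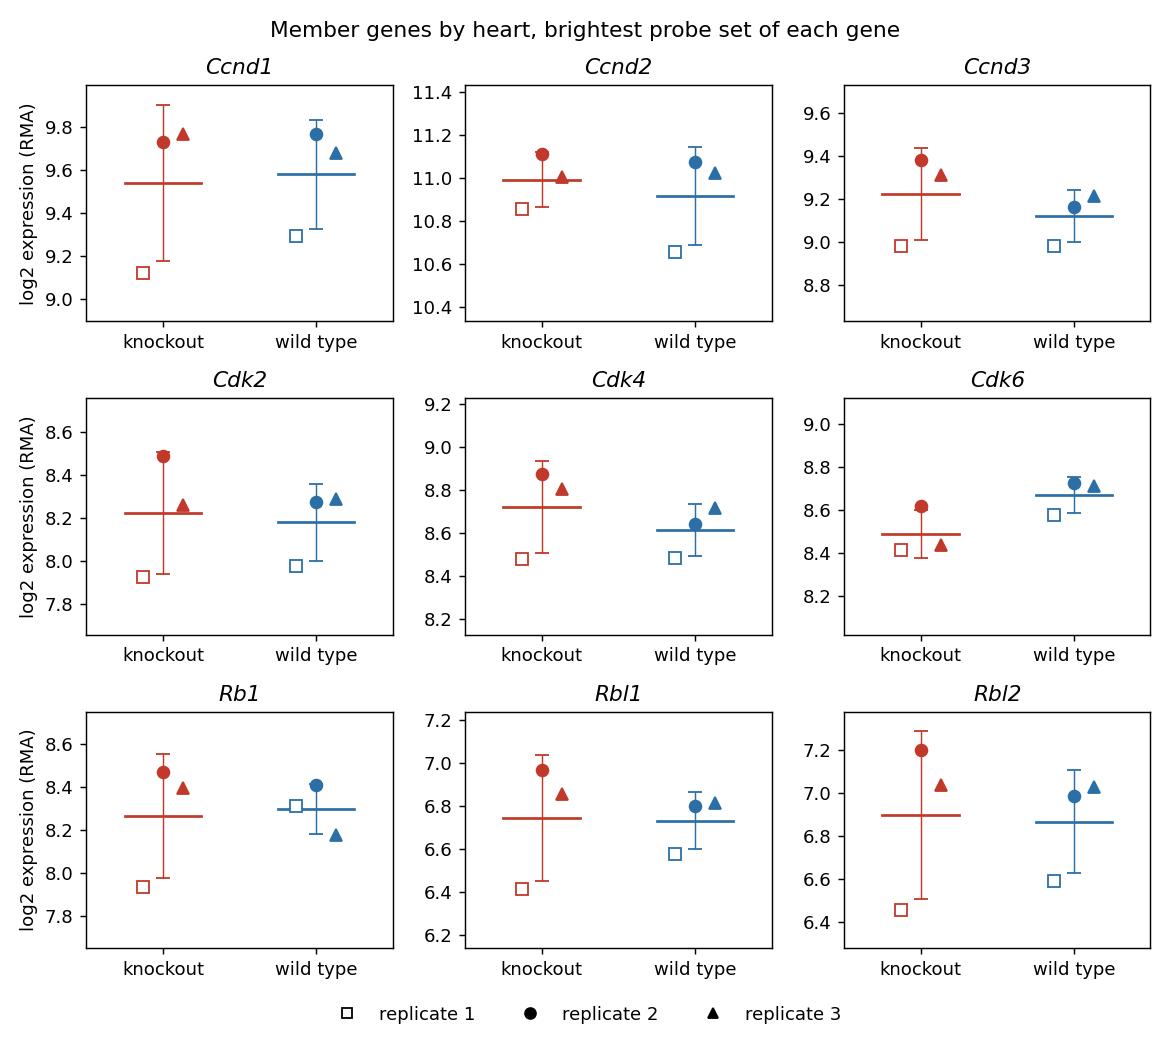
Log2 expression of the 9 genes in each heart (brightest probe set of each gene), knockout in red on the left and wild type in blue on the right of each panel, with the mean and its SD (n = 3). Open squares are replicate 1, the lowest array of both groups in 8 of 9 panels, and the knockout and wild-type values overlap in every panel.

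Promoters are shown for Rbl1, Cdk2, Cdk4 and Cdk6, which shared the low replicate 1 values and held a match to a factor of this pathway. RefSeq windows of GRCm38.p6, each 300 bases long with 250 before and 50 after the transcription start, were at hand for 6 of the 9 genes (7 windows). The E2F motif was searched as TTTCCCGC, TTTCGCGC, TTTGCCGC and TTTGGCGC, and the E-box bound by Myc as CACGTG, on both strands. The 250 bases before the start are given 5′ to 3′ on the gene's strand, with matches in capitals.
Rbl1, chr2:157204535-157204784, minus strand: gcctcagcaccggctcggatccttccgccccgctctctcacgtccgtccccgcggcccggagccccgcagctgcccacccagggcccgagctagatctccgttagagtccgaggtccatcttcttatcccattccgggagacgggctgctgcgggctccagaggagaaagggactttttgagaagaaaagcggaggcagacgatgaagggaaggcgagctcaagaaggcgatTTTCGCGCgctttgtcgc
Cdk2, chr10:128705052-128705301, minus strand: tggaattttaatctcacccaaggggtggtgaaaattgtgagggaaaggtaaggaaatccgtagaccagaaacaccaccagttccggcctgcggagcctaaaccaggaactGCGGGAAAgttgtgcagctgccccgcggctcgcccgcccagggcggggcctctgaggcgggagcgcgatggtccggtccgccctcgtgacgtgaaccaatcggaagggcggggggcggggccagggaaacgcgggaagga
Cdk4, chr10:127063285-127063534, plus strand: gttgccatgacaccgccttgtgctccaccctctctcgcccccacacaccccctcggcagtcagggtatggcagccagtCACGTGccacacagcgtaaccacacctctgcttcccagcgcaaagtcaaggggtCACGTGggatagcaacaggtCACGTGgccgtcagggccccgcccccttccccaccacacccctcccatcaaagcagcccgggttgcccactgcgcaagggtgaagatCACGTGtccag
Cdk6, chr5:3343643-3343892, plus strand: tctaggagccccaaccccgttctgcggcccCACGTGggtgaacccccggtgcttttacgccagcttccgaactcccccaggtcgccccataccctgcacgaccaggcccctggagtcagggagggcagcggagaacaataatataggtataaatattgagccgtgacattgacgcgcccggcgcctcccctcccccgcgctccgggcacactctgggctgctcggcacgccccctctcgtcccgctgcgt
Rbl1 held 1 E2F match, from -18 to -11 relative to the start, and Cdk2 held 1 on the opposite strand, from -140 to -133. Cdk4 held 4 E-boxes, and Cdk6 held 1. The windows of Rbl2 and Ccnd3, which also had the low replicate 1 values, held neither motif. No window was at hand for Ccnd1, Ccnd2 and Rb1. Of 32851 promoter windows in the table, 2.26% held an E2F match and 7.15% an E-box. A match describes the letters only and is not a measured binding site.

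Among the D cyclins, Ccnd1, which links mitogen signals to the cell cycle, was not higher in knockout hearts at any of its 3 probe sets beyond their spread. Its brightest probe set (1417420_at) stood at 9.12, 9.73 and 9.77 in knockout replicates 1 to 3, against 9.29, 9.77 and 9.68 in wild-type replicates 1 to 3. The groups overlapped, with replicate 1 low in each. The difference was -0.040 (95% interval -0.45 to 0.37), and without the replicate 1 arrays it was 0.025. The probe set with the narrowest interval (1448698_at) differed by 0.0032 (interval -0.18 to 0.18), and by -0.024 without the replicate 1 arrays, at 9.15 ± 0.05 in knockout and 9.15 ± 0.11 in wild type (SD, n = 3 each). That interval spans 0.885-fold to 1.14-fold.

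The remaining Ccnd1 probe set was lower in knockout on average. It (1417419_at) stood at 7.47, 7.29 and 7.16 in knockout and at 7.46, 7.58 and 7.54 in wild type. Knockout replicates 2 and 3 lay below all wild-type arrays, and knockout replicate 1 lay just above the lowest of them. The difference was -0.22 ± 0.09 (SE; interval -0.43 to -0.0092), and it did not pass (adjusted p = 1.00 with limma). Without the replicate 1 arrays it was -0.34, and with array weights -0.33. All 3 probe sets are annotated to one transcript, so they are repeated measures of it and not independent evidence.

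Ccnd2, the D cyclin with the most probe sets here, had 7. Its brightest (1416122_at) stood at 10.86, 11.11 and 11.00 in knockout, against 10.65, 11.07 and 11.02 in wild type. The difference was 0.075 (interval -0.20 to 0.35), and 0.010 without the replicate 1 arrays. The probe sets 1434745_at, 1455956_x_at and 1430127_a_at differed by 0.059, 0.0049 and 0.017, and by 0.019, 0.0080 and -0.035 without the replicate 1 arrays. These 4 bright probe sets shared one shape, with replicate 1 lower than the other arrays by 0.30 to 0.42.

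The 3 dimmer Ccnd2 probe sets had no such shape. 1448229_s_at differed by -0.18 and 1416123_at by -0.20, and the knockout and wild-type arrays overlapped in both. Without the replicate 1 arrays these differences were -0.35 and -0.33. Leaving out single arrays gave -0.28 to -0.057 for 1448229_s_at, the end nearest 0 without knockout replicate 3, and -0.35 to -0.094 for 1416123_at, the end nearest 0 without knockout replicate 2. 1416124_at, below the median level of all probe sets (6.06), differed by 0.032, and by 0.20 without the replicate 1 arrays. In these 3 the mean of the replicate 1 arrays was above that of the other 4 arrays by 0.065 to 0.26, but replicate 1 was not the highest array of both groups in any of them.

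Ccnd3, the D cyclin also known from lymphoid cells, had 3 probe sets that did not go the same way. The brightest (1415907_at) stood at 8.98, 9.38 and 9.31 in knockout, against 8.99, 9.17 and 9.22 in wild type, a difference of 0.10 (interval -0.16 to 0.36). Without the replicate 1 arrays it was 0.16. The replicate 1 arrays of both groups were nearly equal, and both other knockout arrays lay above the other wild-type arrays. 1444323_at differed by -0.13 (interval -0.35 to 0.085), and by -0.24 without the replicate 1 arrays.

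The dimmest Ccnd3 probe set (1438805_at) was the one member whose groups did not overlap. It stood at 4.06, 3.92 and 3.86 in knockout, against 4.25, 4.10 and 4.15 in wild type. Every knockout array lay below every wild-type array, by little and near the bottom of the scale. The difference was -0.22 ± 0.08 (SE), which did not pass (adjusted p = 1.00 with limma), and it was -0.23 without the replicate 1 arrays. Among all probe sets, 4.65% were lower in knockout with the groups apart.

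**Figure D2:**
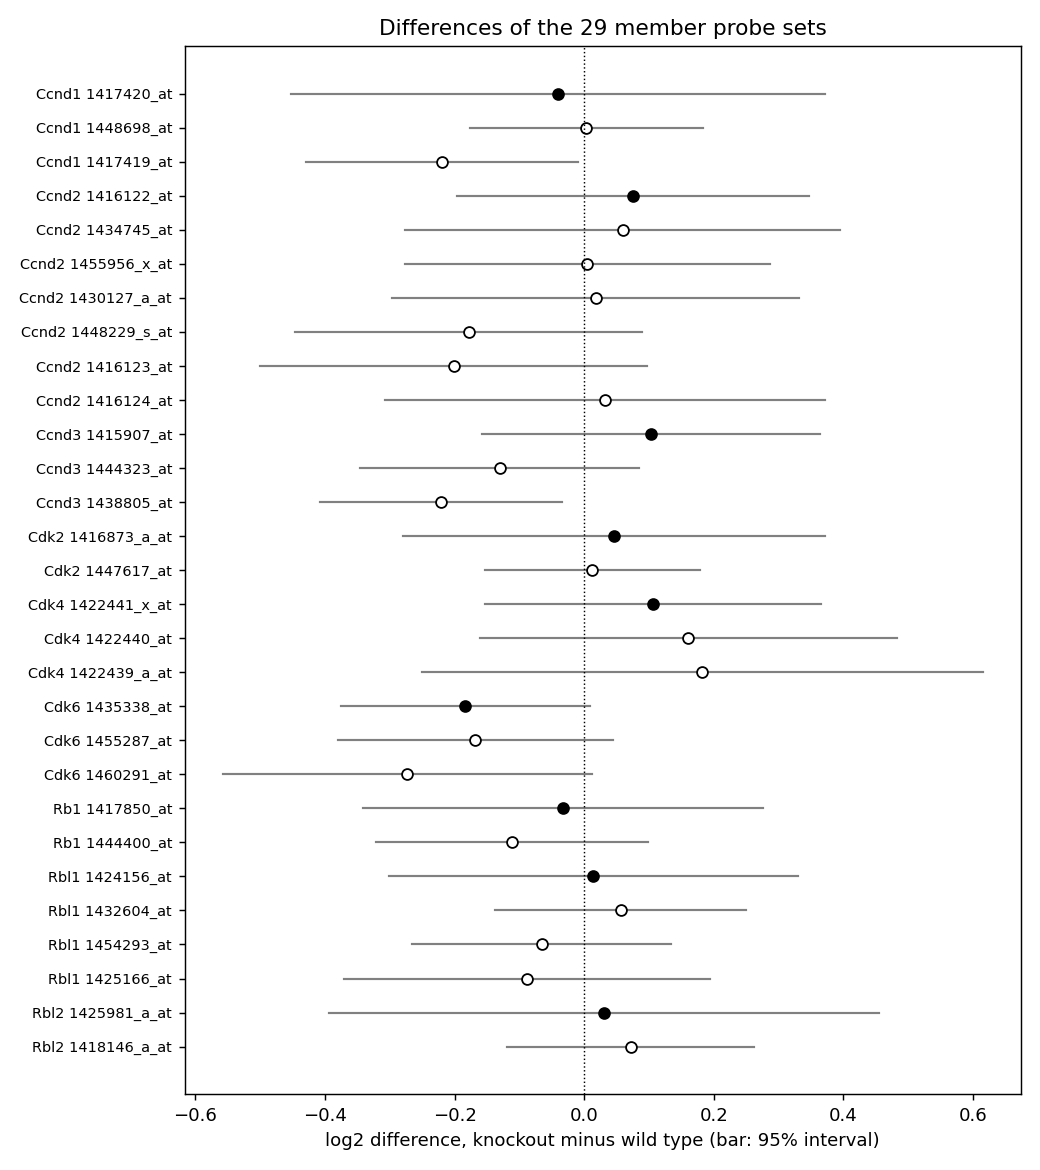
Log2 difference (knockout minus wild type) of each of the 29 probe sets, with its 95% interval from limma, ordered by gene and within a gene by brightness; filled points stand for the gene. All 3 Cdk6 probe sets lie below 0 and all 3 Cdk4 probe sets above it, while Ccnd2 and Ccnd3 have probe sets on both sides.

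Of the kinases, Cdk4 and Cdk6, the partners of the D cyclins, differed in opposite directions, and neither passed. The Cdk4 probe set that stood for the gene (1422441_x_at, whose suffix marks possible cross-hybridisation) stood at 8.48, 8.88 and 8.81 in knockout, against 8.48, 8.64 and 8.72 in wild type. The difference was 0.11 (interval -0.15 to 0.36), and 0.16 without the replicate 1 arrays. 1422440_at stood at 8.18, 8.57 and 8.49 in knockout, against 7.96, 8.38 and 8.42 in wild type, a difference of 0.16, or 0.13 without the replicate 1 arrays. Both values moved with single arrays, between 0.027 (without knockout replicate 2) and 0.23 (without knockout replicate 1) for 1422441_x_at, and between 0.013 (without wild-type replicate 1) and 0.28 (without knockout replicate 1) for 1422440_at.

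1422439_a_at, the dimmest Cdk4 probe set, had the largest positive difference of the members. It stood at 7.62, 8.32 and 8.21 in knockout, against 7.59, 7.88 and 8.14 in wild type. Knockout replicates 2 and 3 were the highest arrays, and both replicate 1 arrays lay below the rest. The difference was 0.18 ± 0.19 (SE), with an interval from -0.25 to 0.61. Leaving out knockout replicate 1 gave 0.40, leaving out knockout replicate 2 gave 0.046 and leaving out wild-type replicate 1 gave 0.042. Without both replicate 1 arrays it was 0.26.

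Cdk6 was lower in knockout at all of its 3 probe sets, none of which passed. The brightest (1435338_at) stood at 8.41, 8.62 and 8.43 in knockout, against 8.57, 8.73 and 8.71 in wild type. Knockout replicate 2 overlapped the wild-type arrays, and the other knockout arrays lay below them. The difference was -0.18 ± 0.09 (SE; interval -0.38 to 0.0093, adjusted p = 1.00 with limma), and -0.19 without the replicate 1 arrays. With the Xist level as a covariate it was -0.057.

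1455287_at, annotated to the same transcript, stood at 8.06, 8.34 and 8.08 in knockout, against 8.24, 8.39 and 8.35 in wild type, and differed by -0.17. Without the replicate 1 arrays it was -0.16, and with the Xist covariate 0.0067. 1460291_at, just below the median level of all probe sets, stood at 6.04, 5.79 and 5.71 in knockout, against 6.32, 6.16 and 5.88 in wild type. It had the lowest difference of the members, at -0.27 ± 0.13 (SE; interval -0.56 to 0.011), which was -0.27 without the replicate 1 arrays and -0.34 with the Xist covariate. Its replicate 1 arrays were the highest of each group, unlike those of the brighter Cdk6 probe sets.

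Cdk2, the partner of E-type cyclins, stood at 7.93, 8.49 and 8.26 in knockout, against 7.98, 8.27 and 8.29 in wild type (1416873_a_at). The difference was 0.046 (interval -0.28 to 0.37), and 0.093 without the replicate 1 arrays. Replicate 1 was lowest in both groups, and the groups overlapped. The other Cdk2 probe set (1447617_at) lay between 2.96 and 3.11 in every array, at the floor of the scale, where a change may not show (difference 0.013, and 0.064 without the replicate 1 arrays).

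Rb1, the retinoblastoma protein, stood at 7.93, 8.47 and 8.39 in knockout, against 8.31, 8.41 and 8.17 in wild type (1417850_at). It was the one gene where wild-type replicate 1 was not the lowest of its group. The difference was -0.033 (interval -0.34 to 0.28) with all arrays and 0.14 without the replicate 1 arrays, so its sign changed without them. The other Rb1 probe set (1444400_at) lay between 3.31 and 3.65, near the floor, and differed by -0.11, or by -0.15 without the replicate 1 arrays.

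Rbl1, the pocket protein whose own gene is controlled by E2F, stood at 6.41, 6.96 and 6.86 in knockout, against 6.58, 6.80 and 6.81 in wild type (1424156_at). The difference was 0.014 (interval -0.30 to 0.33), and 0.10 without the replicate 1 arrays. Replicate 1 was the lowest array of each group. The other 3 Rbl1 probe sets were below the median level and differed by 0.057, -0.066 and -0.088, and by -0.043, -0.11 and -0.070 without the replicate 1 arrays.

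Rbl2, the pocket protein of resting cells, had the widest span of the 9 genes, 0.74 from the lowest to the highest array. It stood at 6.46, 7.20 and 7.04 in knockout, against 6.59, 6.99 and 7.03 in wild type (1425981_a_at). The difference was 0.031 (interval -0.39 to 0.45), and 0.11 without the replicate 1 arrays. The other Rbl2 probe set (1418146_a_at) was flatter, at 6.37 ± 0.04 in knockout and 6.30 ± 0.13 in wild type (SD, n = 3 each), and differed by 0.072, or by 0.039 without the replicate 1 arrays.

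The distance of the replicate 1 arrays from the other 4 was larger than the distance between genotypes for 20 of 29 probe sets, beside 65.5% of all probe sets. It was largest for Rbl2 (-0.54), the dimmest Cdk4 probe set (-0.54) and Ccnd1 (-0.53). Of the 21 member probe sets above the median level, 15 had replicate 1 lowest in both groups, beside 31.1% of all probe sets above that level. Of the 8 below it, 3 had replicate 1 highest in both groups, beside 27% of all probe sets below that level. The whole replicate 1 arrays had a narrower range of values, with an SD over probe sets of 1.86 in knockout and 1.88 in wild type, against 1.90 to 1.95 in the others.

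A further quantile normalization, which gives all arrays one distribution, reduced this distance for most of the genes. After it, the median distance over the 9 genes was -0.20, against -0.30 as deposited, and 7 of the 9 genes still had replicate 1 lowest in both groups (20% of all genes). Cdk6 was the gene that no longer did, at -0.015. Rbl1 (-0.39) and Rbl2 (-0.55) were no closer than as deposited (-0.36 and -0.54).

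Because Xist was low in 2 knockout arrays only, a fit with its level as a covariate rests the difference on knockout replicate 2, where it was high. In that fit the differences were 0.15 for Ccnd1, 0.20 for Ccnd2, 0.26 for Ccnd3, 0.30 for Cdk2 and 0.26 for Cdk4. They were -0.057 for Cdk6, 0.16 for Rb1, 0.23 for Rbl1 and 0.33 for Rbl2, where the brightest probe set stood for the gene. All but Cdk6 were then above 0, and none of the 9 passed.

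**Figure D3:**
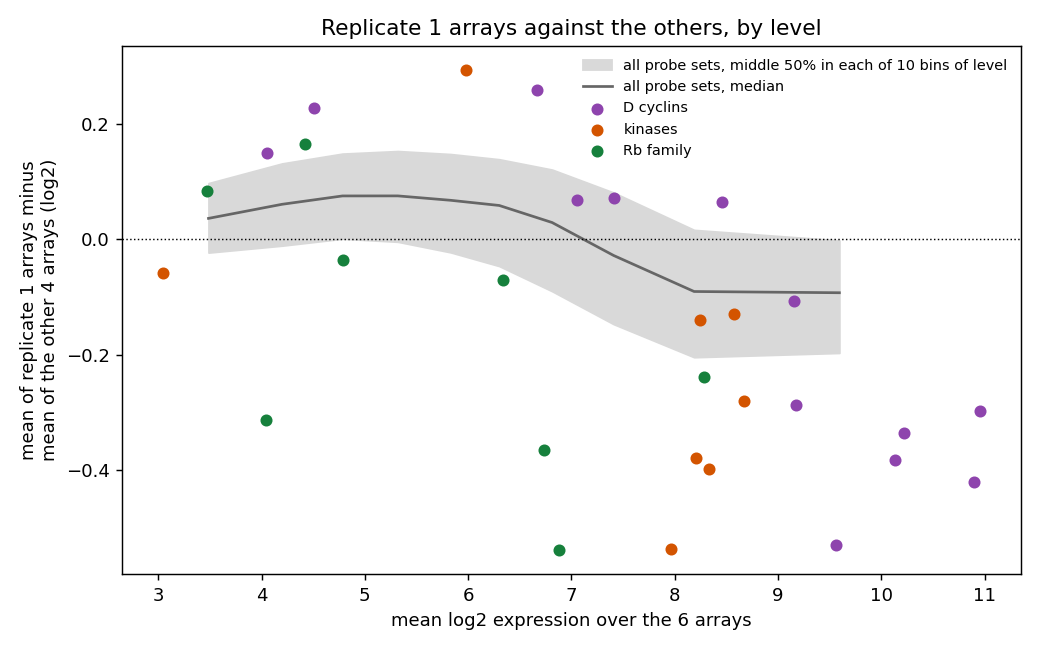
Mean of the 2 replicate 1 arrays minus mean of the other 4 arrays (log2), against mean level, for the 29 probe sets, coloured by family, and for all probe sets (line: median; band: middle 50% in each of 10 bins of level). Over all probe sets the median turns from above 0 at low levels to -0.092 in the brightest bin, and many bright members lie lower than that.

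Genes whose values followed those of a member most closely over the 6 arrays were found among genes spanning at least 0.5, by the mean absolute difference after each gene's own mean was subtracted. Of the 9 genes, 5 spanned that much. For Ccnd1 they were Nsun3 (0.021), Topbp1 (0.031), which acts at replication forks, and Zfp346 (0.039). For Cdk2 they were Nbea (0.015), Tnrc6b (0.020) and Bhlhb9 (0.021), and for Rb1 Crbn (0.013), Acsl4 (0.028) and Mettl15 (0.033). For Rbl1 they were Wdr26 (0.015), Mbd6 (0.016) and Fam135a (0.017), and for Rbl2 Serinc5 (0.022), Taf2 (0.025) and Ier5 (0.029). They were picked from 2088 genes on 6 arrays, and the likeness is a description.

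Of 80 other genes of the pathway, 78 were measured, and 0 passed in either direction with limma over all genes (smallest adjusted p = 1.00). At an unadjusted p under 0.05 there were 5 of the 78, beside 4.1% of all genes. Of the 78 genes 44 were higher in knockout and 34 lower, with a median difference of 0.016, beside 0.00048 over all genes.

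CDK inhibitors, which block the kinases above, were higher in knockout for 4 of 7, with a median difference of 0.086. The closest to the threshold was Cdkn2a, which inhibits Cdk4 and Cdk6, at 4.72, 4.38 and 4.54 in knockout, against 4.31, 4.36 and 4.30 in wild type. The groups did not overlap, at low levels (8.86% of all genes had groups apart). Cdkn2c and Cdkn2d, of the same inhibitor family, each differed by 0.12 and overlapped.

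E2F and DP factors, which the pocket proteins hold back, were split at 5 higher and 5 lower (median 0.0048). Tfdp2, a partner of E2F factors, stood at 8.14, 8.31 and 8.27 in knockout, against 7.82, 8.12 and 8.14 in wild type, a difference of 0.22. The lowest knockout array and the highest wild-type array were almost equal. E2f1 differed by -0.14 and E2f7, a repressor of the family, by -0.13. Among E and A type cyclins and CDK-activating partners 5 of 8 were higher (median 0.0088), with Ccna2 at 0.16, Ccne1 at 0.091 and Mnat1 at 0.061. Of 6 genes listed for MuvB complexes and for DREAM, the complex that Rbl1 and Rbl2 join, 3 were higher (median 0.013). Lin37 among them differed by 0.24 with the groups apart, Rbbp4 differed by 0.080 and Lin9 by -0.078.

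S phase genes reported as E2F targets were lower in knockout for 14 of 19 (median -0.073), and mitosis genes were higher for 13 of 14 (median 0.093). Over all genes 50.2% had a difference above 0. Ung, which removes uracil from DNA, stood at 7.45, 7.35 and 7.55 in knockout, against 7.68, 8.06 and 7.75 in wild type. Ttk, a kinase of the spindle checkpoint, stood at 6.58, 6.63 and 6.57 in knockout, against 6.22, 6.26 and 6.41 in wild type. In both genes the groups were apart, by -0.38 for Ung and 0.30 for Ttk, and neither passed (adjusted p = 1.00 with limma).

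Among the other S phase genes Orc1, of the origin recognition complex, differed by -0.23 and Tk1, thymidine kinase, by 0.18. Among the other mitosis genes Plk1 differed by 0.15 and Aurkb by 0.11. In these lists too the replicate 1 arrays were low: replicate 1 was lowest in both groups for 16 of the 19 S phase genes and 11 of the 14 mitosis genes. The mean of the mitosis genes was 6.996, 7.40 and 7.34 in knockout, against 6.99, 7.18 and 7.29 in wild type. Of the mitogen genes upstream of D cyclins 9 of 14 were higher (median 0.031), with Myc at 0.061, Mycn at -0.076 and Nrg1 at -0.049.

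**Figure D4:**
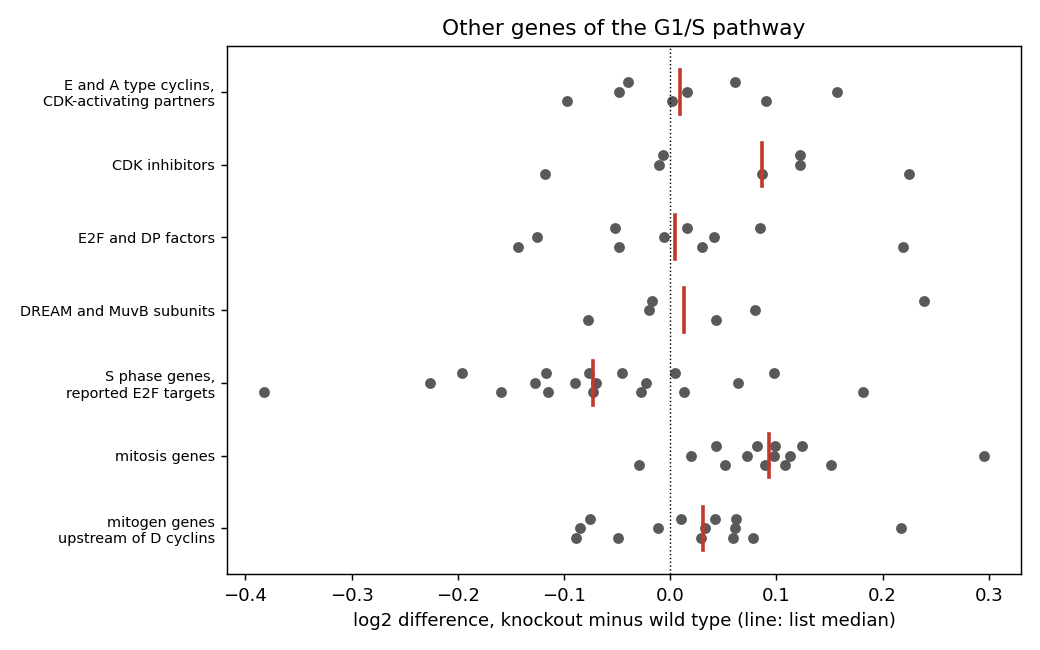
Log2 difference (knockout minus wild type) of each measured gene of 7 lists of the pathway, 1 point for each gene, with the list's median as a red line. The S phase genes have a median of -0.073 and the mitosis genes of 0.093, and 0 of 78 genes passed over all genes.

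The tissue carried heart muscle RNA throughout: the mean of 8 heart muscle markers lay between 13.76 and 13.83 in knockout and between 13.74 and 13.81 in wild type. In whole tissue, fewer cells of a type and less RNA in each cell cannot be told apart. Brown fat markers (6 measured of 7, 4 higher in knockout) were on average high in replicate 1, where most members were low. Their means were 8.60, 7.12 and 6.94 in knockout and 8.30, 6.93 and 6.91 in wild type. Elovl3 was an exception, with replicate 3 the highest wild-type array. Ucp1 and Adipoq lay furthest above the other arrays in replicate 1, by 4.25 and 3.31. Lymphoid and thymus markers (7 measured of 9, 5 lower in knockout, median -0.17) were on average high there too, with means of 5.56, 5.20 and 5.16 in knockout and 5.87, 5.29 and 5.35 in wild type, 5 of them below the median level. Replicate 1 was highest in both groups for 5 of the 7, but not for Cd79a and Cd79b, of B cells. Endothelial markers (5 of 7 higher in knockout) were on average low in replicate 1, as most members were. Their means were 9.03, 9.33 and 9.27 in knockout and 9.02, 9.20 and 9.28 in wild type. Replicate 1 was lowest in both groups for 6 of the 7, but highest in both for Emcn.

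Myeloid markers were lower in knockout for all 7 measured (median -0.23), of which 0 passed. Their means lay from 7.33 to 7.50 in knockout and from 7.56 to 7.81 in wild type. Of the 7, 4 had an unadjusted p under 0.05 with limma, beside 4.1% of all genes. The groups were apart in 5 of them, beside 8.86% of all genes. The list means of fibroblast markers (2 of 7 higher, from 11.40 to 11.65 in knockout and 11.41 to 11.58 in wild type) overlapped between the groups. So did the list means of smooth muscle and pericyte markers (3 of 6 higher, 8.88 to 9.12 in knockout and 8.91 to 9.01 in wild type). Those of skeletal muscle markers (3 of 6 higher, 6.65 to 6.71 in knockout and 6.65 to 6.70 in wild type) overlapped too. Of the smooth muscle and pericyte genes, 1 had its groups apart. This was Cspg4, at 7.73, 7.77 and 7.70 in knockout, against 7.78, 7.79 and 7.87 in wild type. Erythroid markers (3 of 6 measured, 2 higher) had means from 6.92 to 7.18 in knockout and from 6.84 to 7.06 in wild type. The part of these cell types in the members' values was not tested.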

How the data were processed

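Hearts of 3 knockout and 3 wild-type mice were measured on Affymetrix arrays after Trizol extraction and biotin labelling, per the labels' protocols. The deposited values are on the log2 scale. The authors computed them by RMA with R's affy package, per the series' design text, and scanned with GCOS 1.4, per the submitters' processing notes. Their R and affy versions are not stated there. RMA compresses differences near its floor (lowest value 2.64), and arrays carry no read depth, so their number limits the precision.

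The 64 control probe sets were left out. Probe sets were named by the platform annotation, updated through RefSeq of GRCm38.p6 (34945 name 1 gene, 932 several, 9160 none). A gene was represented by its brightest probe set (18193 genes). Groups came from the titles. The design text gives 3 mice per genotype, and 0 pairs of arrays were identical. Differences were fitted with limma 3.58.1 in R 4.3.3 over all probe sets and over all genes, with Benjamini-Hochberg adjustment and a threshold of 0.05, two-sided. On simulated data of 45037 probe sets, changes were 2-fold in 100 and 4-fold in 100. The steps recovered 100% of both and called 14 unchanged probe sets. Changes as small as the differences of the members were not simulated, so this recovery says nothing about changes of that size. The members, the lists and the naming rule (all members, the 3 genes of each pathway list with the smallest p, the genes most alike) were chosen with earlier results of these data known. Alternatives covered the replicate number, variance model, normalization, array weights, Xist, dim and ambiguous probe sets and single arrays.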

Additional observations from a re-analysis of the deposited data

How the results depend on the processing

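None of the 29 member probe sets and none of the 9 genes passed under any alternative run, and the smallest adjusted p of a member probe set was 0.12 (Ccnd1 1417419_at with array weights). Among genes it was 0.061, for Cdk6 with array weights (difference -0.24), a setting in which 416 genes passed. Titles give both groups the replicate numbers 1 to 3 with no statement of what a number marks. Deviations of same-numbered arrays correlated at 0.46, 0.15 and 0.087 over probe sets and at 0.54, 0.18 and 0.13 over genes, while knockout replicate 3 and wild-type replicate 2 reached 0.26 over probe sets. Not every pair was above 0.1 over probe sets, so the numbers were not taken as pairs. With the replicate block 20 probe sets passed of all, against 3 without it, and 13 genes against 0. Of the members, 4 of 29 had an unadjusted p under 0.05 with it, against 2 without it (3.94% of all probe sets without it). The share of all probe sets with it was not counted, so the rise is not read as particular to the members. Among the 4 were 2 of the 3 Cdk6 probe sets. Within every replicate number, 4 of the 29 were lower in knockout, all 3 Cdk6 probe sets and Ccnd3 1438805_at. Another 3 were higher within every number, Ccnd2 1434745_at, Cdk4 1422440_at and Cdk4 1422439_a_at. These shares were not counted over all probe sets either, so they are not read as particular to the members. No member passed with the block (smallest adjusted p of the members 0.58 with limma). The count over all probe sets was 24 with array weights, 6 when the variance had a trend and was robust, 0 with the Xist covariate, 0 among probe sets above the median level, and 1 to 15 when single arrays were left out (6 without knockout replicate 1, 15 without knockout replicate 2, 1 without each wild-type array). The cause was not tested.

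Of 387 recomputed member differences 338 kept their sign and 49, from 16 probe sets, turned, all of them short of the threshold. With array weights Ccnd1 1417420_at turned to 0.085, Ccnd1 1448698_at to -0.0058 and Rb1 1417850_at to 0.070. With the Xist covariate Ccnd1 1417420_at turned to 0.15, Cdk6 1455287_at to 0.0067, Rb1 1417850_at to 0.16, Rbl1 1432604_at to -0.022 and Rbl1 1425166_at to 0.11. With replicates 2 and 3 only Ccnd1 1417420_at turned to 0.025, Ccnd1 1448698_at to -0.024, Ccnd2 1430127_a_at to -0.035, Rb1 1417850_at to 0.14 and Rbl1 1432604_at to -0.043. With a further quantile normalization Ccnd1 1448698_at turned to -0.030, Ccnd2 1455956_x_at to -0.014 and Ccnd2 1430127_a_at to -0.0085. With the mean of all probe sets of a gene Ccnd2 was at -0.027, Ccnd3 at -0.082 and Rbl1 at -0.021. Leaving out single arrays gave ranges of -0.18 to 0.17 for Ccnd1 1417420_at, -0.046 to 0.059 for Ccnd1 1448698_at, -0.057 to 0.15 for Ccnd2 1416122_at, -0.10 to 0.18 for Ccnd2 1434745_at, -0.11 to 0.12 for Ccnd2 1455956_x_at, -0.14 to 0.12 for Ccnd2 1430127_a_at and -0.15 to 0.19 for Ccnd2 1416124_at. They were -0.086 to 0.20 for Cdk2 1416873_a_at, -0.013 to 0.058 for Cdk2 1447617_at, -0.13 to 0.13 for Rb1 1417850_at, -0.096 to 0.18 for Rbl1 1424156_at, -0.0053 to 0.11 for Rbl1 1432604_at, -0.19 to 0.026 for Rbl1 1425166_at and -0.12 to 0.25 for Rbl2 1425981_a_at. Under the filter on level the 8 dimmer member probe sets have no value. The normalization check of the replicate 1 distance was added after the data were seen.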
